A study of Mus musculus with 8 samples.

Results

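The steady-state transcriptome of haematopoietic stem cells (HSCs), from which every blood lineage is renewed throughout life, is described here from the 4 WT pools of a series of 8 samples. The members were chosen by their label alone: WT pools 1 to 4, with no KO pool. The mice were untreated and on a C57Bl/6 background, and all were Cre-negative littermates of the mice with a blood-specific deletion of Bmpr2, whose product binds bone morphogenetic proteins (BMPs) as a type II receptor. Per the labels, every WT sample pooled the marrow of 3 mice, although the design text of the series speaks of single mice. WT pool 1 held 1 mouse with both Bmpr2 alleles floxed and 2 with a single floxed allele. WT pool 2 held 3 mice with a single floxed allele. WT pool 3 held 1 mouse of each kind, doubly floxed, singly floxed and unfloxed, and WT pool 4 held 2 doubly floxed mice and 1 singly floxed mouse. The WT group is therefore not of 1 genotype, although without Cre a floxed allele is left intact. The labels give neither the age and sex of the mice nor the day of the sort. Cells were sorted as lineage-negative, Sca-1-positive and Kit-positive with high CD9, with CD150 and without CD48, their RNA was amplified from small amounts by single-primer isothermal amplification, and each pool was hybridised to 1 Affymetrix array.

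HSCs in adult marrow divide rarely and are held in that state by a small network of transcription factors and by signals from the niche, of which thrombopoietin, stem cell factor and the chemokine CXCL12 are the best known. They already carry transcripts of some mature lineages, a state called lineage priming, and in mice the megakaryocyte programme is the one most often found in the most primitive cells. Sorting keeps cells out of the marrow for hours, and immediate early genes, which respond to stress within minutes, are known to change during such handling.

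The array gave 1 level for each of 21104 genes with an unambiguous symbol, on the log2 scale, where 1 unit is a doubling of signal. Levels ran between 1.61 and 13.25, with a median of 5.82 over the means of the pools. Array probes differ in how well they bind, so the ranks below order signals of probe sets and not numbers of transcripts. As a measure of what an unexpressed gene gives, 1102 olfactory receptor genes, which are silent in blood, were used: their median level was 3.52 and the 95th percentile of their means 5.22. The same percentile was 5.10, 5.32, 5.21 and 5.29 on the arrays of WT pools 1 to 4, and a gene above it on all 4 arrays is called above the silent level. This held for 11902 genes, 56.4% of all. By its mean alone 61.4% of genes lay above it. Levels below this percentile are called the range of silent genes. The highest single olfactory receptor gene reached 6.97, 6.98, 7.27 and 7.06 on the arrays of WT pools 1 to 4. A gene above the silent level can therefore still overlap some silent genes in signal.

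**Figure D1:**
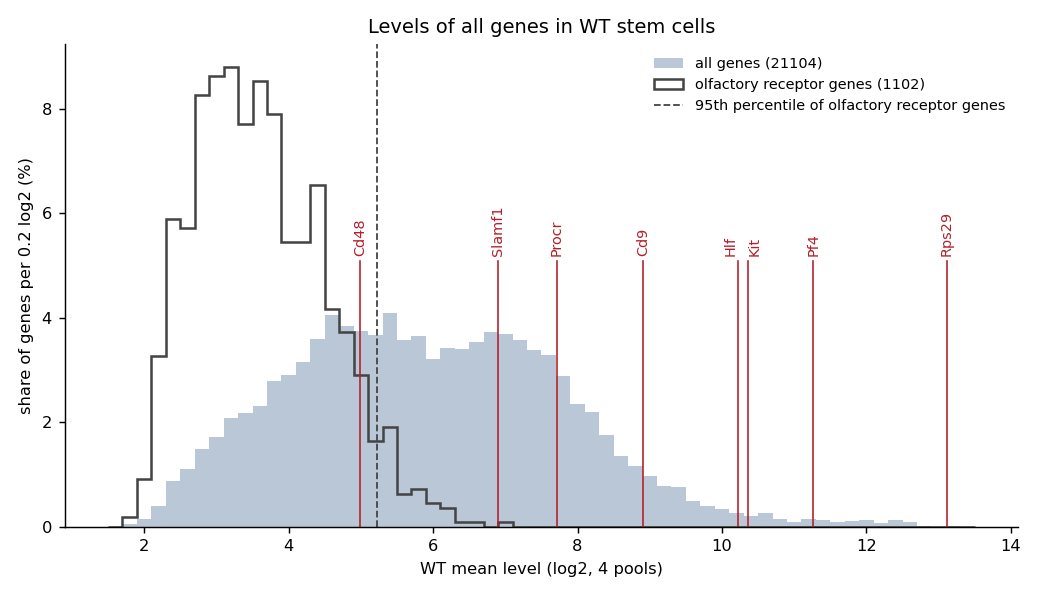
Share of genes (%) at each WT mean level (log2, 4 pools) for all 21104 genes (filled) and for the 1102 olfactory receptor genes (outline), with the 95th percentile of the olfactory receptor genes as a dashed line at 5.22 and single genes marked. The olfactory receptor genes lie mostly at the low end, Cd48 is at 4.99 below the line, and Kit at 10.35, Pf4 at 11.27 and Rps29 at 13.12 lie in the thin upper end.

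The genes of the sorting gate, whose protein levels chose the cells, were present in every pool. Kit, the receptor for stem cell factor, was at 10.56, 10.31, 10.14 and 10.41 in WT pools 1 to 4 (log2), which placed it at the 98.5th percentile of all genes. Ly6a, which encodes Sca-1, was at 9.27, 8.36, 8.94 and 8.91. Slamf1, which encodes CD150, was at 7.18, 6.97, 6.63 and 6.82. Of these 3 genes Kit was the closest from pool to pool and Ly6a the least, with WT pool 2 the lowest for Ly6a. Cd9, a tetraspanin gene, was the least even of the gate's genes, at 8.83, 8.09, 9.53 and 9.20, a span of 2.70-fold between WT pools 2 and 3. Cd48, the marker the gate excludes, was at 4.86, 4.12, 5.52 and 5.48, a mean of 4.99 ± 0.65 (SD, n = 4). That mean lies below the 95th percentile of silent genes, and WT pools 3 and 4 lay somewhat above the percentile of their arrays. Outside the gate, Hlf, a transcription factor gene used to mark HSCs, was at 10.42, 10.30, 9.86 and 10.28, and Procr, which encodes the surface receptor EPCR, at 7.81, 7.81, 7.68 and 7.54. All 6 of the stem cell markers were thus above the silent level in every pool, where 56.4% of all genes were.

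**Figure D2:**
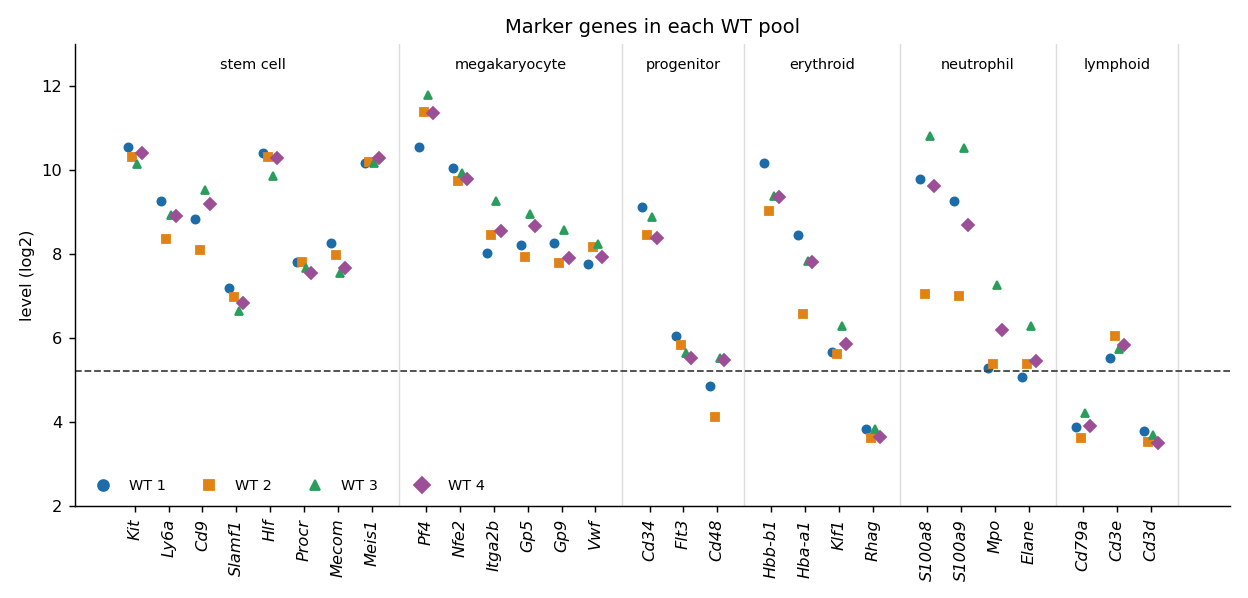
Level (log2) of marker genes by class in each of the 4 WT pools, with the silent level of 5.22 as a dashed line. Stem cell and megakaryocyte genes lie well above the line in all pools, Cd79a and Cd3d lie below it, and S100a8 and S100a9 spread most between pools, with WT pool 3 the highest and WT pool 2 the lowest.

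The strongest signals came from the machinery of protein synthesis. Of 83 ribosomal protein genes 80 were above the silent level, against 56.4% of all genes. In the top 10% of ranks stood 78 of them, and their median level was 12.2. Rps29, a protein of the small subunit, was at 13.15, 13.11, 13.10 and 13.10 and had the highest mean of all genes apart from ribosomal RNA. Rplp1 of the ribosomal stalk averaged 12.89 ± 0.07 and Rps28 averaged 12.84 ± 0.06 (SD, n = 4). Eef1a1, the factor that brings aminoacyl-tRNA to the ribosome, was at 12.65, 12.60, 12.66 and 12.66, level in all pools. Leaving aside structural RNAs and predicted genes, most of the 20 genes with the highest means were ribosomal protein genes, and Eef1a1 and a processed copy named Rps15a-ps6 were also among them. Ribosomal genes have many near-identical pseudogenes that can share probes, so their single levels are uncertain. The 3 ribosomal genes not above the silent level were Rpl3l at 4.25, Rpl10l at 4.32 and Rpl39l at 3.87, copies known from muscle and testis.

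Genes that mark or maintain HSCs were for the most part well above the silent level. Of 35 measured stem cell identity genes 33 were above the silent level, against 56.4% of all genes, and 11 were in the top 10%. Their median percentile was 83.1. Meis1, a homeobox gene needed for HSC maintenance, was at 10.17, 10.19, 10.17 and 10.28, an SD of 0.06 that is below the median SD of 0.186 for genes above the silent level. Mecom, which encodes the factor EVI1, was at 8.25, 7.98, 7.56 and 7.67, with WT pool 1 the highest. Angpt1, a ligand of the receptor Tek, averaged 10.12 ± 0.14 (SD, n = 4). Ifitm1 and Ifitm3, interferon-induced membrane protein genes that stem cells carry without infection, were the highest of the list, at 11.92 ± 0.14 and 11.77 ± 0.10 (SD, n = 4). Other genes widely used to mark HSCs gave modest signals. Fgd5, a GTPase exchange factor gene, was at 6.35 ± 0.10 and stood at the 58.9th percentile. Hoxb5 was at 7.54, 7.96, 6.58 and 7.17 and so differed 2.60-fold between WT pools 2 and 3. Gprc5c at 5.05 and Rarb at 5.50 were the 2 members not above the silent level in all pools, and Rarb fell short of it in WT pool 3 alone, at 4.65 against 6.02, 5.81 and 5.51 in WT pools 1, 2 and 4.

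The blood transcription factors above the silent level had a median SD of 0.192, close to the 0.186 of all such genes, and Lmo2, Gata2 and Myb were more even than that. Lmo2, the bridging protein of the blood stem cell GATA and TAL1 complex, was at 10.38, 10.41, 10.36 and 10.34. Gata2, its GATA factor in stem cells, was at 9.52, 9.53, 9.47 and 9.51. Myb, a regulator of HSC self-renewal and progenitor growth, was at 10.22, 10.17, 10.09 and 10.17. The ranges of these 3 genes were 0.06, 0.06 and 0.12 on the log2 scale, at most 1.09-fold. Erg and Fli1, ETS factors, averaged 9.73 ± 0.24 and 9.89 ± 0.26, Runx1 9.49 ± 0.13 and Tal1 7.94 ± 0.20 (SD, n = 4). Among 27 measured blood transcription factors 22 were above the silent level, against 56.4% of all genes. Of the other 5, Pax5 at 5.21 and Ebf1 at 4.88 are factors of B cells and Tcf7 at 4.71 a factor of T cells. The last were Cebpa at 5.17, a factor of myeloid cells, and Id2 at 4.73, an inhibitor of differentiation. Gata1, the GATA factor of red cells and megakaryocytes, was the least even of the 22, at 6.55, 6.75, 7.79 and 7.06.

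Hox genes, whose products set position in the embryo and self-renewal in HSCs, differed by cluster. In the Hoxa cluster 7 of 11 genes were above the silent level, and in the Hoxb cluster 7 of 10, against 56.4% of all genes. In the Hoxc cluster it was 0 of 9, and in the Hoxd cluster 1 of 9, Hoxd10 at 5.41 ± 0.07. Within Hoxa the genes from Hoxa3 to Hoxa10 were the ones above it, Hoxa9 being the highest at 7.73 ± 0.32 (SD, n = 4), then Hoxa5 at 8.01, 7.79, 7.23 and 7.51. Genes towards the ends of the cluster, Hoxa2 at 5.04, Hoxa11 at 4.59 and Hoxa13 at 4.43, were not. In the Hoxc cluster the highest was Hoxc6 at 4.96 ± 0.38 and the lowest Hoxc4 at 3.75 ± 0.14 (SD, n = 4). Of the 15 Hox genes above the silent level, WT pool 3 was the lowest of the 4 pools in 9, where 20.8% of all genes above it had their lowest level there, and the highest in 0. WT pool 1 was the highest in 8 of the 15, against 30.0% of all genes above the silent level. For WT pool 2 it was 4 of the 15, against 20.6% of all such genes.

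**Figure D3:**
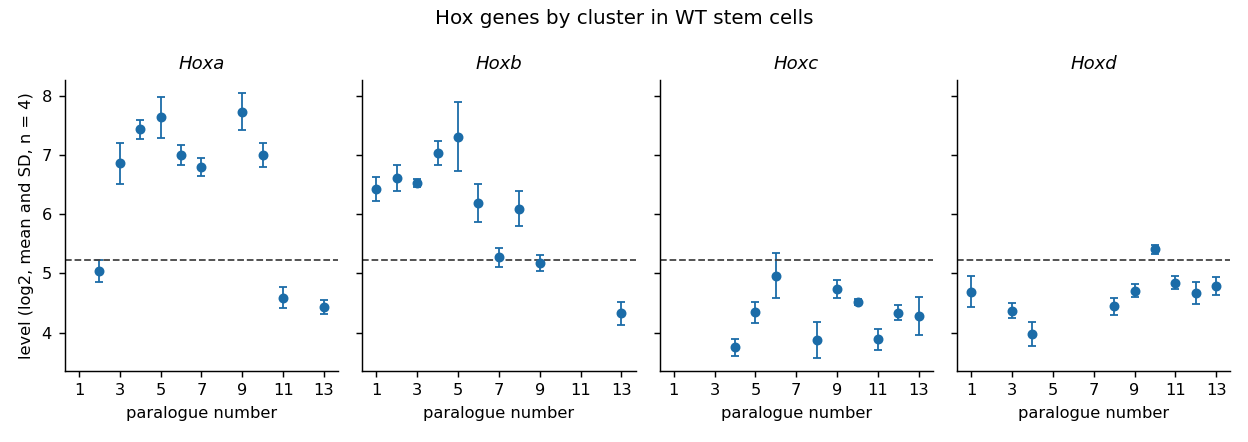
Level (log2, mean and SD of 4 WT pools) of Hox genes against its paralogue number, 1 panel per cluster, with the silent level of 5.22 as a dashed line. Hoxa3 to Hoxa10 and Hoxb1 to Hoxb8 lie above the line, Hoxb7 only just at 5.27, while the Hoxc genes lie below it and Hoxd10 just above it at 5.41.

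Among receptors for niche and growth signals Kit, described above, gave the highest level. Cxcr4, the receptor for CXCL12 that retains HSCs in the marrow, was at 9.56, 9.51, 9.66 and 9.37. Of 34 receptor and ligand genes of the cytokine list 24 were above the silent level, or 70.6%, against 56.4% of all genes. Tnfrsf1a, a receptor for tumour necrosis factor, and Ifnar2, a chain of the type I interferon receptor, averaged 7.83 ± 0.12 and 8.29 ± 0.16 (SD, n = 4). Il6st, the shared signalling chain of interleukin-6 family receptors, was at 7.50, 6.33, 7.35 and 7.40, low in WT pool 2. Receptors of committed cells were mixed. Il7r of lymphoid progenitors at 3.68 ± 0.04 and Csf1r of monocytes at 4.99 ± 0.17 were in the range of silent genes, while Csf3r, the receptor for granulocyte colony-stimulating factor, at 7.24 ± 0.23 and Csf2ra, a chain of the GM-CSF receptor, at 7.66 ± 0.18 (SD, n = 4) were above it.

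In the BMP and TGF-beta receptor family 7 of 14 genes were above the silent level, a share close to the 56.4% of all genes. Bmpr2, the floxed gene, was at 8.09, 7.63, 7.05 and 7.83 in WT pools 1 to 4, a span of 2.05-fold. In the same order the pools held 1, 0, 1 and 2 doubly floxed mice and 2, 3, 1 and 1 singly floxed mice. Whether the floxed alleles had a part in the spread of Bmpr2 was not tested. Its type I partners gave little signal, Bmpr1b at 2.96 ± 0.10 and Bmpr1a at 3.88, 2.80, 2.93 and 2.87, so that Bmpr1a was in the range of silent genes in all pools. Acvr1, another type I receptor for BMPs, was at 4.89 ± 0.15. Eng, a coreceptor also known as a mark of HSCs, and Tgfbr3, a coreceptor for TGF-beta, led the family at 8.86 ± 0.28 and 8.18 ± 0.21 (SD, n = 4). Of 8 SMAD genes, the transmitters of these signals inside the cell, 7 were above the silent level and Smad9 at 5.12 ± 0.02 was not. Among 34 Notch and Wnt genes 23 were above the silent level, or 67.6%, against 56.4% of all genes. Ctnnb1, which encodes beta-catenin, was the highest of these at 8.89 ± 0.15 (SD, n = 4). The Notch ligand gene Jag1 at 3.97 ± 0.11 and the effector gene Hey2 at 2.74 ± 0.07 (SD, n = 4) were at the low end.

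Genes of the megakaryocyte and platelet lineage were high in the sorted cells. All 18 measured members were above the silent level, against 56.4% of all genes, and 8 stood in the top 10% of ranks. Pf4, a chemokine stored in platelet granules, was at 10.55, 11.38, 11.77 and 11.35, which placed it at the 99.2nd percentile of all genes. Itga2b, an integrin of platelets that early HSCs also carry, was at 8.02, 8.45, 9.26 and 8.56. Vwf, which encodes von Willebrand factor and marks platelet-biased HSCs, was at 7.75, 8.16, 8.25 and 7.94. For all 3 genes WT pool 1 was the lowest and WT pool 3 the highest, and over the list WT pool 3 was the highest in 12 of 18 genes, against 29.1% of all genes above the silent level. In bulk samples, more cells of a type and more RNA per cell cannot be told apart.

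Markers of multipotent progenitors and of erythroid cells were mixed. Of 13 progenitor genes 5 were above the silent level, or 38.5%, against 56.4% of all genes. Cd34, whose protein is absent from the most primitive adult HSCs, was nevertheless at 9.11, 8.45, 8.87 and 8.39. Flt3, which marks progenitors that have left the HSC state, was at 6.04, 5.84, 5.64 and 5.52, near the middle of all genes at the 49.0th percentile. Of 18 measured erythroid genes 12 were above the silent level, or 66.7%, against 56.4% of all genes. Car2, a carbonic anhydrase gene, was at 10.72, 10.64, 10.59 and 10.73, while Car1 of the same family was at 7.17, 5.50, 8.22 and 7.12. Car2 was level across the pools, while Car1 spanned 6.56-fold, with WT pool 2 the lowest. Hbb-b1, a beta globin gene, was at 10.18, 9.03, 9.38 and 9.36, and Hba-a1, an alpha globin gene with a near-identical copy, at 8.44, 6.56, 7.83 and 7.81. Both globins were highest in WT pool 1 and lowest in WT pool 2. Rhag, a red cell membrane gene, was at 3.73 ± 0.11 (SD, n = 4), in the range of silent genes.

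Granulocyte and monocyte genes held some of the widest differences between pools. Of 28 such genes 12 were above the silent level in all pools, a lower share than the 56.4% of all genes. S100a8, a subunit of the neutrophil protein calprotectin, was at 9.78, 7.04, 10.80 and 9.63, and its partner S100a9 at 9.27, 7.01, 10.52 and 8.70. Both were lowest in WT pool 2 and highest in WT pool 3, a span of 13.5-fold and 11.5-fold. Mpo, the myeloperoxidase of early granulocytes, was at 5.29, 5.37, 7.26 and 6.20, and Elane, which encodes neutrophil elastase, at 5.07, 5.38, 6.29 and 5.46, again highest in WT pool 3. Lyz2, a lysozyme gene, and Prtn3, a granule protease gene, were steadier, at 9.10 ± 0.40 and 8.27 ± 0.36 (SD, n = 4), and highest in WT pool 1. Some genes of mature cells were in the range of silent genes, with Mmp8 at 3.06 ± 0.07, Ccr2 at 3.28 ± 0.07 and the defining surface gene Ly6g at 3.85 ± 0.06, while Camp, a granule peptide gene, was above it at 6.67 ± 0.39 (SD, n = 4). The mean deviation of the 12 genes from their own means was 0.07, -0.44, 0.38 and -0.01 in WT pools 1 to 4, and without S100a8 and S100a9, a choice made after seeing the data, it was -0.004, -0.11, 0.14 and -0.03. WT pool 2 was the lowest in 5 of the 12 genes, against 39.5% of all genes above the silent level, and WT pool 3 the highest in 6, against 29.1%. Whether admixed cells had a part in this was not tested.

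Markers of lymphocytes, mast cells and stromal cells were mostly in the range of silent genes, and those of endothelium mostly above it. Of 15 B cell genes 3 were above the silent level, and of 18 T and NK cell genes 5. It was 2 of 14 mast cell, basophil and eosinophil genes and 6 of 16 stromal and bone genes. These shares are below the 56.4% of all genes. For dendritic cell and macrophage genes it was 10 of 18, or 55.6%, close to that of all genes. Of 16 endothelial genes 12 were above the silent level, or 75%, several of which, such as Eng and Emcn, are also carried by HSCs. The genes Cd79a at 3.90 ± 0.25 of B cells, Cd3d at 3.63 ± 0.14 of T cells, Cpa3 at 4.25 ± 0.13 of mast cells, and Cdh5 at 4.80 ± 0.11 and Kdr at 4.81 ± 0.17 of endothelium lay in the range of silent genes. Among the exceptions were Vpreb1, a surrogate light chain gene, at 7.03, 7.55, 7.59 and 7.66, and Nkg7, a granule membrane gene of cytotoxic cells, at 7.48, 7.18, 9.18 and 8.39. Cd79b, the partner of Cd79a in the B cell receptor, was at 7.38 ± 0.13, and the T cell genes Cd3e and Lck at 5.79 ± 0.22 and 5.76 ± 0.07 (SD, n = 4), also above the silent level in all pools. Nkg7, like Itga2b and Mpo, was highest in WT pool 3, and Vpreb1 was low in WT pool 1. Runx2, known from bone, was at 8.16 ± 0.28 and Tie1, a receptor of vessels, at 8.42 ± 0.07, yet neither Lepr at 3.23 ± 0.16 nor Flt1 at 4.21 ± 0.20 (SD, n = 4) stood out. MHC class II genes were present: H2-Aa was at 8.53, 8.03, 7.02 and 7.66 and Cd74, the invariant chain, at 8.07, 7.78, 6.51 and 7.34, both highest in WT pool 1, then WT pools 2, 4 and 3. The macrophage gene Emr1, now called Adgre1, was at 3.86 ± 0.21 (SD, n = 4).

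Cell cycle genes gave clear signals although HSCs are largely quiescent. All 30 S phase genes and all 31 genes of G2 and M phase were above the silent level, against 56.4% of all genes. Their median percentiles were 85.3 and 82.7. Pcna, the sliding clamp of DNA replication, was at 11.09, 11.04, 11.22 and 11.10. Mki67, the proliferation marker Ki-67, was at 8.46, 8.58, 8.96 and 9.05, and Ccnb1, which encodes the mitotic cyclin B1, at 7.48, 6.96, 8.53 and 8.20. In both of the last 2 genes WT pools 3 and 4 lay above WT pools 1 and 2. Genes tied to quiescence were present in the same pools: all 25 were above the silent level, again against 56.4% of all genes. Txnip, a regulator of redox state and HSC dormancy, averaged 10.23 ± 0.28 (SD, n = 4), Cdkn1b, the CDK inhibitor p27, at 9.79 ± 0.19, and Cdkn1c, the CDK inhibitor p57, at 6.37 ± 0.23 (SD, n = 4). An array of a pool gives no account of which cells carry which of these transcripts.

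Energy metabolism genes were uniformly above the silent level, where 56.4% of all genes were. For the respiratory chain and ATP synthase it was 49 of 49, with 44 in the top 10% and a median percentile of 96.7. For glycolysis it was 25 of 25, with 8 in the top 10%. Cox6b1, a subunit of cytochrome oxidase, was at 12.09 ± 0.12, and Ldha, the lactate dehydrogenase chain of glycolytic cells, at 9.70 ± 0.33 (SD, n = 4). Heat shock genes stood as high, with 14 of 16 in the top 10%, Hspa8, the constitutive HSP70 chaperone, at 11.96 ± 0.07. The inducible Hspa1a was at 7.03, 8.78, 9.74 and 9.37 and the small chaperone gene Hspb1 at 5.77, 6.98, 7.67 and 7.13, in the same order of pools, with WT pool 1 the lowest and a span of 6.52-fold for Hspa1a. Of 13 measured MHC class I genes 12 were above the silent level, against 56.4% of all genes. They were led by B2m, the shared light chain, at 12.05 ± 0.09 (SD, n = 4). Of 30 measured interferon response genes 26 were above the silent level, also against 56.4% of all genes. Mx1, 1 of the other 4, was at 3.85 ± 0.24 (SD, n = 4), in the range of silent genes.

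The spread between pools was small for most genes. Across the 11902 genes above the silent level, the median SD over the 4 pools was 0.186, and the median gene differed 1.33-fold between its highest and lowest pool. Over all genes in 10 equal bins of level, the median SD was 0.154 in the lowest bin, 0.204 in the eighth and 0.177 in the highest. A range over 1, which is more than 2-fold, was found for 508 genes, 4.27%. WT pool 2 was the lowest pool for 272 of these and WT pool 3 the highest for 222. The count was 214 without WT pool 2 and 272 without WT pool 3, and 460 after quantile normalization over the 4 arrays. On the arrays of WT pools 1 to 4 the lower quartile of levels was 4.45, 4.59, 4.49 and 4.48. The upper quartile was 7.30, 7.15, 7.30 and 7.26, so levels were the least spread on the array of WT pool 2. Whether this had a part in the counts by pool was not tested. Across the genes above the silent level, Pearson's r between pools ran between 0.957, for WT pools 2 and 3, and 0.975, for WT pools 1 and 4 (across genes, which are not independent replicates). One pool stood far from the other 3 by Dixon's ratio in 701 of the 11902 genes, 5.89%, and in 227 of them it was WT pool 2 on the low side. Among genes in the top 10% and leaving predicted genes aside, Phip, Rpl26 and Idnk were of the 5 with the smallest range, with ranges between 0.03 and 0.04. Phip, a gene of a chromatin-binding protein, was at 8.60, 8.61, 8.63 and 8.60, and Tbp, often used as a reference gene, at 7.18, 6.94, 7.25 and 7.00.

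**Figure D4:**
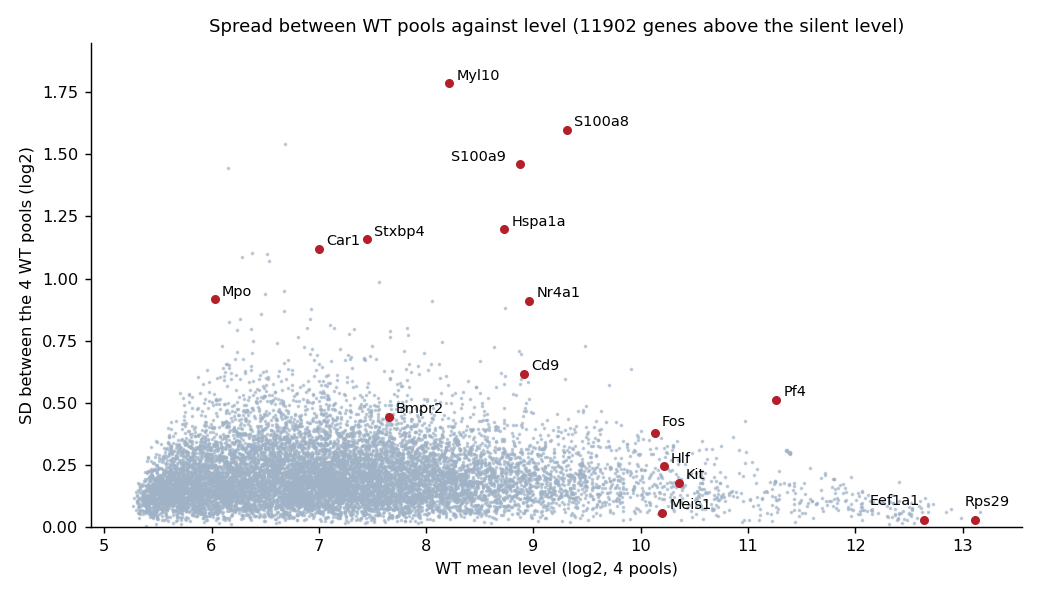
SD between the 4 WT pools (log2) against mean level (log2) for the 11902 genes above the silent level, with single genes in red. Myl10 has the largest SD at 1.79, then S100a8 at 1.60, while Meis1 at 0.06 and Eef1a1 at 0.03 lie at the bottom.

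The genes with the largest spread did not all follow the same pools. Myl10, a myosin light chain gene, was at 10.35, 8.99, 6.43 and 7.10, a span of 15.1-fold, and Ern1, a sensor of protein folding stress, at 8.85, 8.03, 7.04 and 7.36. Chad, a cartilage matrix gene, was at 7.95, 6.50, 5.35 and 6.34. In these 3 genes WT pool 1 was the highest and WT pool 3 the lowest. Stxbp4 was at 8.08, 8.35, 5.78 and 7.59, low in WT pool 3 and highest in WT pool 2. Rtn2, a reticulon gene, was at 5.41, 6.58, 5.66 and 7.85, highest in WT pool 4. Xist, the RNA that coats the inactive X chromosome of female cells, was at 10.57, 9.96, 4.52 and 4.21, an 82.3-fold span, so that WT pools 1 and 2 carried it far above the silent level and WT pools 3 and 4 were below it. Myl10 and H2-Aa were likewise higher in WT pools 1 and 2 than in the others, and Mki67 and Ccnb1 were lower there. These genes were set beside Xist after their values were seen, and the share of all genes with such a split was not counted. The labels do not give the sex of the mice, and its part in these differences was not tested.

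When each list was summed up by pool, the lists parted in the same few directions. The value is the mean, over members above the silent level, of a gene's deviation from its own mean over the 4 pools, and over all 11902 genes it was 0.04, -0.07, 0.03 and -0.005 in WT pools 1 to 4. For G2 and M phase it was -0.21, -0.41, 0.45 and 0.16, with WT pool 3 the highest in 27 of 31 genes and WT pool 2 the lowest in 22. Over all genes above the silent level these shares were 29.1% and 39.5%. For S phase it was -0.05, -0.22, 0.27 and 0.00, with WT pool 3 the highest in 24 of 30. Replication-dependent histone genes, many of which have near-identical copies, shared this order at -0.08, -0.19, 0.34 and -0.07, with WT pool 3 the highest in 48 of 52. Hist1h2bc, one of them, was at 8.47, 7.61, 9.34 and 9.54 and was highest in WT pool 4 instead. The respiratory chain was also highest in WT pool 3, in 39 of 49 genes, at 0.06, -0.18, 0.21 and -0.09.

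WT pool 1 stood out in other lists. For interferon response genes the value was 0.25, -0.14, -0.02 and -0.09, with WT pool 1 the highest in 20 of 26 genes against 30.0% of all genes above the silent level. Stem cell identity genes were at 0.16, -0.03, -0.11 and -0.02, with WT pool 1 the highest in 16 of 33, and ribosomal protein genes at 0.06, -0.02, 0.03 and -0.08, with it the highest in 54 of 80. The ribosomal differences were small, the median SD of those genes being 0.076, and WT pool 4 was the lowest in 52 of them against 23.3% of all genes. Heat shock genes were instead mostly highest in WT pool 3, with a mean deviation of -0.26, -0.13, 0.30 and 0.10. WT pool 3 was the highest in 13 of the 16 genes, against 29.1% of all genes above the silent level. WT pool 1 was the lowest in 6 of the 16 and WT pool 2 in 8, against 16.3% and 39.5% of all such genes. For 3 of the 16, Hspa1a and Hspb1 included, the range was over 1, against 4.27% of all genes above the silent level.

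**Figure D5:**
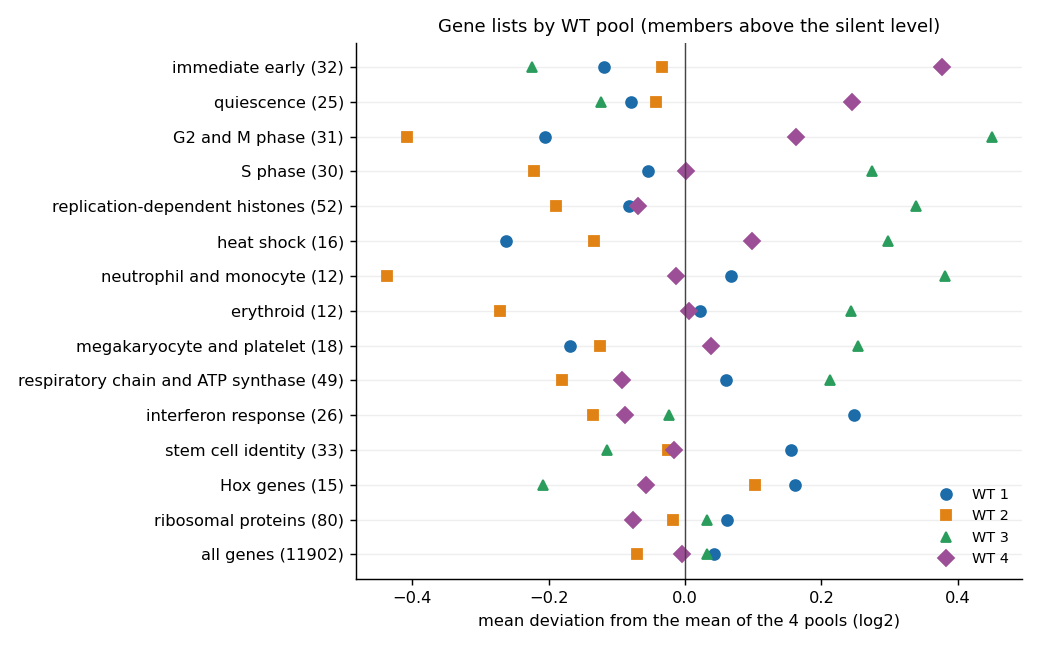
Mean deviation (log2) of each gene list from the mean of the 4 WT pools, 1 row per list with the number of members above the silent level in brackets and 1 marker per pool. WT pool 3 is at the right end for G2 and M phase at 0.45, and WT pool 4 for immediate early genes at 0.38, while all genes together lie within -0.07 and 0.04.

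Immediate early genes were high in every pool and highest in WT pool 4. Of 35 measured 32 were above the silent level, against 56.4% of all genes, and 13 were in the top 10% of ranks. WT pool 4 was the highest in 25 of the 32, where 20.2% of all genes above the silent level had their highest level there, and the list's value was -0.12, -0.03, -0.22 and 0.38. Fos, a subunit of the factor AP-1, was at 9.96, 9.97, 9.89 and 10.70, and Fosb, a relative, at 10.52, 10.91, 10.66 and 11.35. Nr4a1, an orphan nuclear receptor gene linked to HSC quiescence, was at 8.96, 8.64, 8.04 and 10.20. Atf3, a stress-induced repressor gene, was at 6.54, 6.59, 6.39 and 7.94. In each of these 4 genes WT pool 4 lay above the other pools, which were close together for Fos and Atf3. Myc, counted in the same list, was instead highest in WT pool 1 at 11.04, with 10.32, 10.45 and 10.63 in WT pools 2, 3 and 4. The quiescence list, which shares Nr4a1, Nr4a2, Btg2, Zfp36, Klf2, Klf4, Klf6 and Socs3 with this one, was also highest in WT pool 4, at 0.24 against -0.08, -0.04 and -0.12 in WT pools 1, 2 and 3.

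Promoters of immediate early genes are known to carry cyclic AMP response elements (CREs), sites for the CREB and ATF factors. The 120 bases before the start site are shown for 5 members that were highest in WT pool 4, 5′ to 3′ on the gene's strand, with every TGACG or its reverse complement CGTCA, the core of a CRE, in capitals (RefSeq, GRCm38.p6). They were picked among the members that hold it, so that all 5 do is no finding.
Fos, chr12:85473770-85473889, plus strand: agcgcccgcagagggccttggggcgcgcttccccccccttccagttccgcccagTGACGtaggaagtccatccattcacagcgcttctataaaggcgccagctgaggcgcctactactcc
Fosb, chr7:19310046-19310165, minus strand: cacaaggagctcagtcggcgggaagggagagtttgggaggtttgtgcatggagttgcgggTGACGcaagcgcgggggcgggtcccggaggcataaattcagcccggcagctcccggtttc
Junb, chr8:84978749-84978868, minus strand: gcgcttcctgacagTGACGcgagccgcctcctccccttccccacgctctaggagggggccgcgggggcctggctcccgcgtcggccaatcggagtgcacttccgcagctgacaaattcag
Nr4a1, chr15:101266726-101266845, plus strand: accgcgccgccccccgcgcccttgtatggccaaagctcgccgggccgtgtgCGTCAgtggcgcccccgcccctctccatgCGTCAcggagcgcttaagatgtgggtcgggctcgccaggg
Atf3, chr1:191183334-191183453, minus strand: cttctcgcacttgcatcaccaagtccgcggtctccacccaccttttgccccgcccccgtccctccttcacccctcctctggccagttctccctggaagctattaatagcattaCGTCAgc
In the 250 bases before the start site, TGACG or CGTCA was found in 11 of 22 promoters matched for the members highest in WT pool 4, in 13 of 28 matched for the whole list, and in 17.9% of the promoters of all 27025 genes. The full palindrome TGACGTCA was found in 3 of 28 and in 1.62% of all. These counts describe letters in a window, without regard to base composition, and say nothing of binding in these cells.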

How the data were processed

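RNA of sorted stem cells was measured on Affymetrix arrays, 1 per pool. The authors deposited log2 values, made with RMA in Affymetrix Expression Console 1.3 per the submitters' processing notes; RMA normalises arrays together, so the WT values were scaled with all arrays of the series. No annotation version or genome build was named in the sources used here. The deposited table also holds the authors' KO against WT comparison, a p-value per probe set and a signed fold change (a score) per the file headers; neither was used. Of 28853 probe sets, 23586 had 1 gene symbol, 5188 had none, 50 had several and 29 had a bare number; the first kind was kept, and for 1351 genes with several rows the row with the highest WT mean, which left 21104 genes. Of these, 18743 matched a current symbol in the RefSeq table and 1920 an older one. Means, SDs, ranks and percentiles were computed with Python 3.11.15, pandas 2.3.3 and numpy 2.4.6, and plots with matplotlib 3.10.9; the scripts were tested on simulated data. With 1 group there was no test and no p-value, and nothing says whether pools came from separate sorts. The number of arrays limits the precision.

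The members and the gene lists were chosen with earlier results of these data known. Named genes were the sorting and stem cell markers, Cd48, Bmpr2 and Xist, the 20 highest by mean, the 20 with the largest SD, the 5 with the smallest range, 3 per pool by gap, and the 6 highest and 3 lowest of each list, leaving out predicted genes, small RNAs and receptor families from all but the lists. Outside that rule, and chosen after their values were seen, were Runx1, Tal1, Cebpa, Mecom, Fgd5, Tek, Vwf, Csf1r, Csf2ra, Acvr1, Ccnb1, Cdkn1c, Elane, Ly6g, Cd79a, Cpa3, Junb, Btg2, Nr4a2, Klf2, Klf4, Socs3, Hoxa2, Hoxa3, Hoxa10, Hoxa11, Hoxa13, Hoxb7, Hoxc6 and Hoxd10. Some results are not reported here.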

Additional observations from a re-analysis of the deposited data

Results flagged for a closer look

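Among the 139 genes whose levels are given, 7 had 1 WT pool so far from the other 3 that the gap made up more of the range than Dixon's critical value for 4 samples allows, as chance gives in about 1 in 20 groups. Over all genes above the silent level the share was 5.89%, and WT pool 2 was the distant pool in 311 of those 701 genes. WT pool 4 stood high for Fos at 10.70 and for Atf3 at 7.94. WT pool 1 stood high for Tnfrsf1a at 8.01 and for Bmpr1a at 3.88, the second within the range of silent genes, and low for Vpreb1 at 7.03. WT pool 2 stood low for Il6st at 6.33. Il6st and Atf3 were named because they passed Dixon's ratio, so the 7 of 139 is not a fair measure of how often it is passed. WT pool 3 stood high for Idnk at 8.57, a gene whose whole range was 0.04. Of the gene lists, the mast cell, basophil and eosinophil list stood high in WT pool 2 at 0.13, from the 2 members above the silent level.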

How the results depend on the processing

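Genes above the silent level numbered between 9104, with the 99th percentile of the olfactory receptor genes, and 13802, with vomeronasal receptor genes as the silent set, against 11902; leaving out 1 pool gave 11958 to 12250. The count of genes with a range over 1 was 803 with no filter on level and 214 to 402 with 1 pool left out, the lowest without WT pool 2; with fewer pools a range can only shrink. The median r between pools was 0.986 over all genes. At the 99th percentile the members above the silent level were 3 for multipotent progenitors, 7 for erythroid, 6 for neutrophil and monocyte, 1 for T and NK cell, 5 for dendritic cell and macrophage, 1 for mast cell, 7 for endothelial and 11 for Notch and Wnt genes; with vomeronasal receptor genes B cell genes numbered 6. Of the list deviations 738 moved by less than the spread between pools and 10 by more. Averaging a gene's rows moved 9 of the 139 levels by more than that spread, Eef1a1 to 11.95 and Cdkn1b to 8.85 among them. No paired analysis was possible because 1 group was used. Without replicates of a pool, technical and biological spread cannot be told apart, and levels near the silent level have no order.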
